A study of Danio rerio with 48 samples.

Results

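Retinas of adult albino zebrafish after 72 h of continuous bright light (72 hours post light onset, hpl) were compared with retinas after 24 h of the same light. The comparison rests on 12 libraries, 6 at 72 hpl and 6 at 24 hpl, chosen by their labelled time-point from the 48 libraries of a chronic low light (CLL) time course. Every fish was of the albino strain, 6 to 9 months old, and had been raised on 14 h of light at 250 lux and 10 h of dark per day. All were held in the dark for 24 h and then moved to halogen light of about 5000 lux. Both groups share strain, dark adaptation and light, and differ in the hours in that light and so in the day of harvest. The methods describe 2 rounds of light treatment with 3 fish per time-point each, and the round of a library is not stated. The interval between both time-points is a whole number of days. Each library is the left-eye retina of a single fish, dissected without the optic nerve, and pigment epithelium or vitreous may have come along. QuantSeq 3′ mRNA-seq reads the 3′ end of each mRNA, so a gene's value does not grow with its length. At each time-point replicates 1 to 3 form library set 1 and replicates 4 to 6 form library set 2, and the set was a term in the fit.

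Strong light injures photoreceptors, the rods and cones of the outer retina, and albino eyes lack the pigment that would shield them. In zebrafish the Müller glia, the radial support cells of the retina, can answer photoreceptor loss by re-entering the cell cycle and giving rise to progenitors of new neurons, a step that follows the return of factors such as Ascl1a. Microglia, the resident phagocytes, clear dying cells. Light also sets the circadian clock, in zebrafish partly through light-induced genes such as per2. What the comparison asks is which transcripts were still moving between the first and the third day of light.

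All values are edgeR pseudocounts, counts adjusted by the authors to a common library size, and are called normalised values here. Their sums ran from 1629375 to 1634233 per library, so the depth of a single library is not known from them. Several libraries stood apart. Of the tested genes, 185 to 689 were at 0 in each set 1 library, against 1 to 3 in the set 2 libraries other than 72 hpl replicate 6, with 273. The rod phototransduction genes made up 4.35% and 4.25% of the signal in 72 hpl replicates 1 and 2 and 1.23% to 1.56% in the other 4 libraries of that time-point. In 72 hpl replicate 4 the cone phototransduction genes held 2.22% of the signal against 6.20% to 7.39% in the others, and glycolysis genes 3.44% against 1.25% to 1.54%. In 24 hpl replicate 1 glycolysis genes held 4.54% against 1.67% to 2.79%. Marker sums differed widely between cell types. The 4 rod markers held 1.40 to 2.60% of the signal at 24 hpl and 0.715 to 2.87% at 72 hpl. The 3 horizontal cell markers held 0.00221 to 0.01005% at 24 hpl and 0.00248 to 0.005855% at 72 hpl. For 2 red blood cell markers the ranges were 0.00521 to 0.0143% and 0.00555 to 0.0122%, and 3 lens markers held at most 0.000586% in any of the 12 libraries.

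More genes were higher than lower at 72 hpl. Of 11395 tested genes, 881 (7.73%) passed an adjusted p of 0.05 (limma, Benjamini-Hochberg), 666 higher (5.84%) and 215 lower (1.89%). With a change of at least 2-fold as well, 249 passed (2.19%), 178 higher (1.56%) and 71 lower (0.623%). Every 72 hpl library lay above every 24 hpl library in 230 genes (2.02%) and below in 48 (0.421%). The direction was shared by the library sets in 880 of the 881 genes, hes6 being the exception. The 881 genes were called on both sets together, so a shared direction largely follows from the selection and is no independent repeat. In set 1 alone 439 genes passed, 345 of them among the 881, and in set 2 alone 74, with 68 of them among the 881. The balance depends on scaling: under median-of-ratios scaling the fold changes shifted by -0.104 on the log2 scale in the median over tested genes, from 0.036 to -0.069, and then 435 genes were higher and 360 lower, that is 54.7% of the calls higher in place of 75.6%. With upper-quartile scaling 466 were higher and 281 lower (62.4%), and at 2-fold or more the split was 113 to 127 with median-of-ratios and 134 to 101 with upper-quartile scaling. Without 24 hpl replicate 1 the count of called genes was 573.

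**Figure D1:**
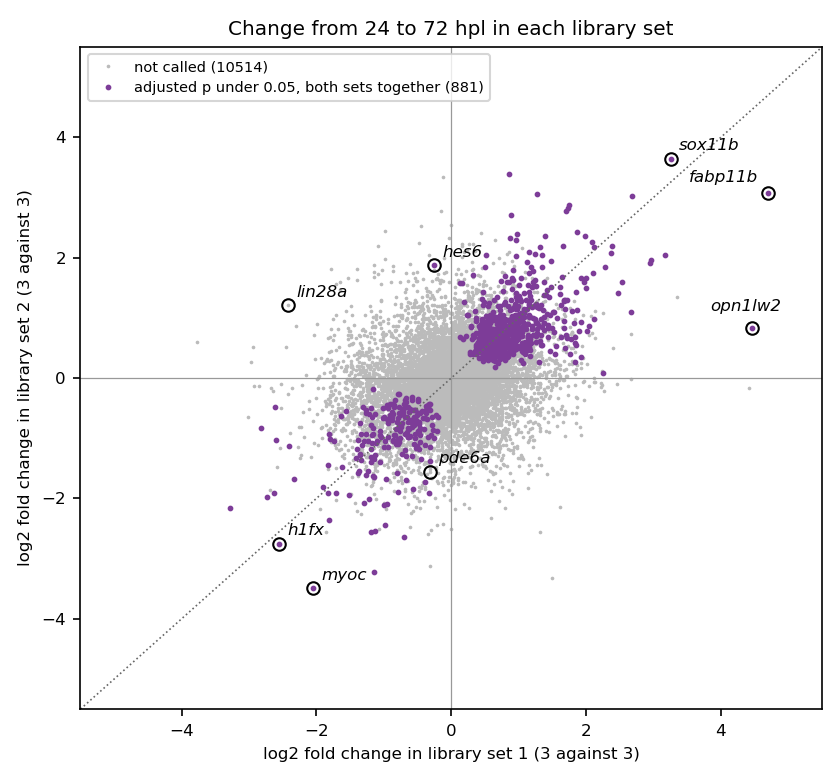
Log2 fold change from 24 to 72 hpl (log2 of value + 1) in library set 1, horizontal axis, against library set 2, vertical axis, for the 11395 tested genes, with the 881 called genes in colour and 8 labelled. The called genes were picked on both sets together, and 880 of them lie in the quadrants where both sets have the same sign. The log2 fold change of sox11b was 3.26 in set 1 and 3.64 in set 2.

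The rise with the smallest p was that of sox11b, a SoxC transcription factor of neural progenitors and young neurons. Its normalised value lay between 33.0 and 137 at 24 hpl and between 387 and 1571 at 72 hpl, with medians of 73.7 and 1017, and the groups did not overlap (log2 fold change 3.45 ± 0.27, adjusted p = 3.77e-13). Before light, at 0 h, it was 45.5 ± 10.7 (SD, n = 6), which is given here as an untested reference. The largest fold change was that of fabp11b, a fatty acid-binding protein of fish that carries lipids within cells, with values from 10.8 to 42.5, median 28.4, at 24 hpl and from 16.5 to 754, median 676, at 72 hpl (log2 fold change 3.89 ± 0.57, adjusted p = 1.30e-05). Of its 72 hpl libraries only replicate 4, at 16.5, fell within the range of 24 hpl, and the others held 537 to 754. Its 0 h level was 400.3 ± 200.1 (SD, n = 6), so the 24 hpl values lay below the 0 h mean.

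The hormone gene lepa, a leptin, ran from 0.557 to 17.04, median 5.84, at 24 hpl and from 19.8 to 102, median 40.6, at 72 hpl (log2 fold change 2.86 ± 0.51, adjusted p = 0.000189), and the groups did not overlap. The galectin gene lgals9l1, which encodes a sugar-binding lectin, lay between 3.51 and 30.1 at 24 hpl and between 40.2 and 141 at 72 hpl, with medians of 17.7 and 101 (log2 fold change 2.61 ± 0.38, adjusted p = 1.06e-05), again with no overlap. Both lgals9l1 and lepa were higher in each library set, which the rule that picked the largest rises required. The melanosome matrix gene pmelb ran from 15.3 to 120.4, median 64.0, at 24 hpl and from 151 to 508, median 329, at 72 hpl (log2 fold change 2.46 ± 0.33, adjusted p = 3.19e-06), without overlap, and its 0 h level was 155 ± 29.6 (SD, n = 6). Among the 10 largest rises were also krt4, a keratin of surface epithelium (log2 fold change 2.31 ± 0.52, adjusted p = 0.00255), and the unnamed genes zgc:109982 (2.43 ± 0.54) and zgc:103438 (2.29 ± 0.57). The weakest of these was zgc:103438, with a highest value of 9.93, which did not pass without 72 hpl replicates 1 and 2 together (adjusted p = 0.0552), and a log2 fold change on value + 1 understates the change of such low genes.

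**Figure D2:**
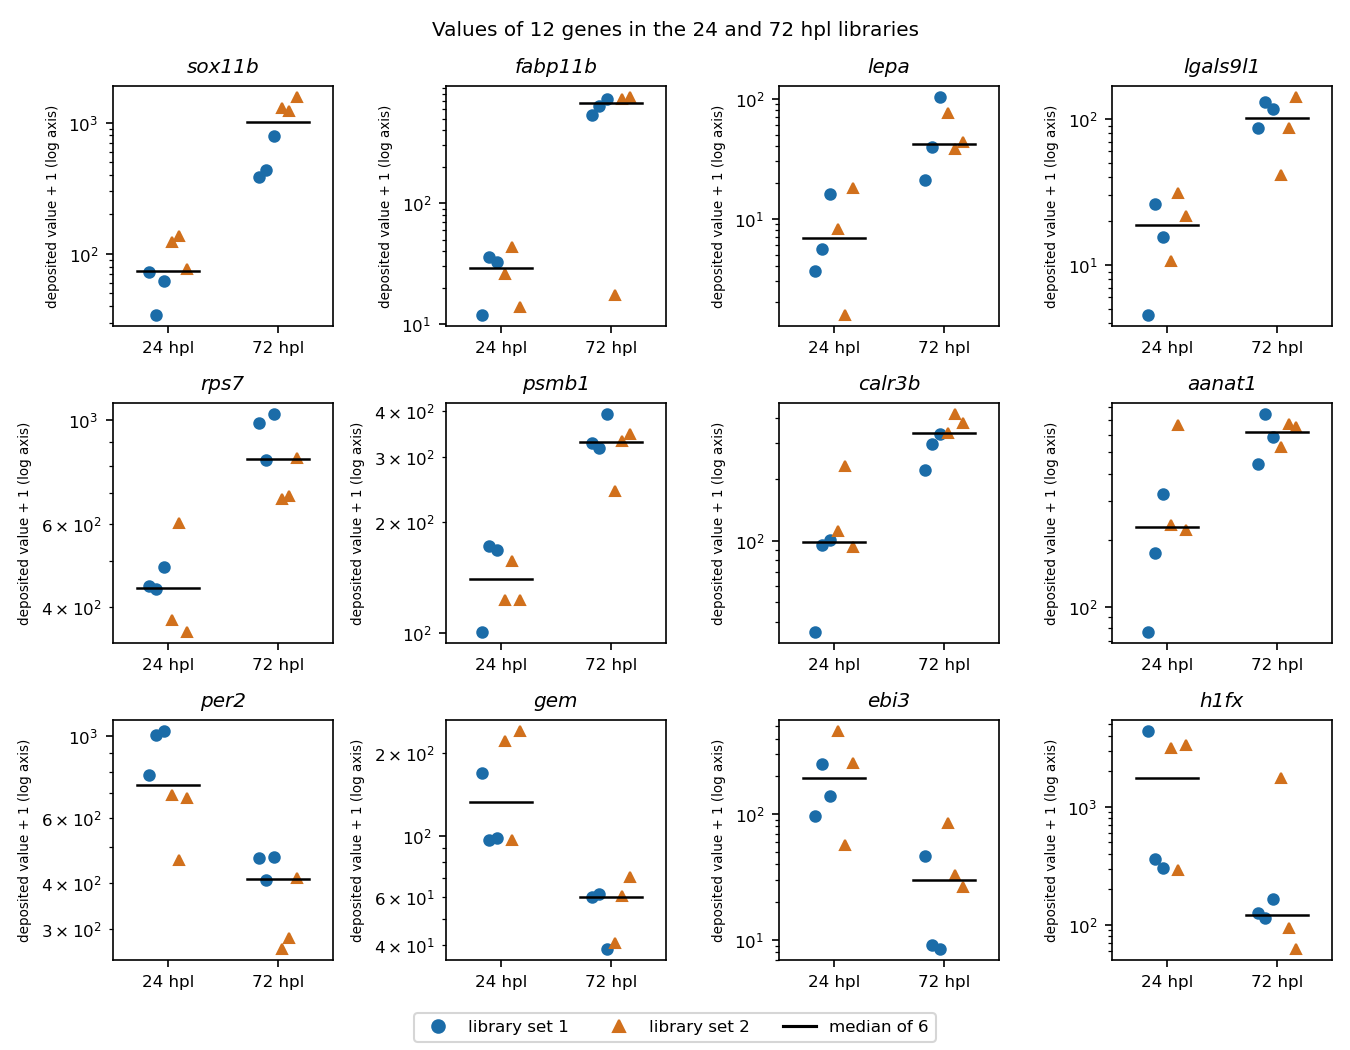
Normalised value + 1 (log axis) of 12 genes in each of the 6 libraries at 24 hpl and at 72 hpl, with circles for library set 1, triangles for set 2 and a line at the median. The 72 hpl values of sox11b, lepa, lgals9l1, rps7 and psmb1 all lie above their 24 hpl values, those of gem all lie below, and the value of fabp11b in 1 library at 72 hpl lies with those of 24 hpl.

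The largest fall was that of myoc, which encodes the secreted glycoprotein myocilin, with values from 22.6 to 148, median 95.7, at 24 hpl and from 1.79 to 65.8, median 8.65, at 72 hpl (log2 fold change -2.77 ± 0.61, adjusted p = 0.00191). The groups overlapped, since 24 hpl replicate 1, at 22.6, lay under the 2 highest 72 hpl libraries. The cytokine subunit gene ebi3, whose mammalian product is part of interleukins of the IL-12 family, lay between 55.8 and 459 at 24 hpl and between 7.41 and 84.4 at 72 hpl, with medians of 194 and 28.9 (log2 fold change -2.72 ± 0.52, adjusted p = 0.000373). At 0 h it was 1.32 ± 1.14 (SD, n = 6), so the fall at 72 hpl was from a level well above that of the dark retina. The kinase gene sbk3 fell as well (log2 fold change -2.35 ± 0.55, adjusted p = 0.00345), from 7.05 to 1.18 in the median, without overlap.

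Linker histone genes, whose products bind DNA between nucleosomes, made up 3 of the 10 largest falls. The value of h1fx ran from 291 to 4399.9, median 1749.9, at 24 hpl and from 61.0 to 1740.2, median 120.0, at 72 hpl (log2 fold change -2.65 ± 0.57, adjusted p = 0.00155), that of h1f0 from 112 to 2236, median 690.4, at 24 hpl and from 59.0 to 801, median 84.0, at 72 hpl (log2 fold change -2.27 ± 0.48, adjusted p = 0.00138) and that of histh1l from 166 to 6533, median 1176, at 24 hpl and from 105 to 869, median 305, at 72 hpl (log2 fold change -2.01 ± 0.48, adjusted p = 0.00439). Within a time-point these genes were uneven: h1fx held 4399.9, 3139 and 3374 in 24 hpl replicates 1, 4 and 6 and 291 to 361 in the other 3, and 72 hpl replicate 4, at 1740.2, stood above the other 72 hpl libraries. The same 4 libraries had the highest values of pkma, a pyruvate kinase, at 7432, 4586, 3806 and 4959. All 3 histone genes passed with any 1 library left out, and without 24 hpl replicate 1 and 72 hpl replicates 1 and 4 together. They did not pass when only the 12 libraries were fitted (adjusted p = 0.114 for h1fx, 0.12 for h1f0 and 0.124 for histh1l), nor in set 2 alone.

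The remaining large falls held up less well. The peptidase gene prepl (log2 fold change -2.18 ± 0.60, adjusted p = 0.0154) did not pass without 72 hpl replicate 4 (adjusted p = 0.076). The chemokine gene ccl25b (log2 fold change -2.09 ± 0.63, adjusted p = 0.0284) did not pass without any 1 of 24 hpl replicates 1, 4 and 6 and 72 hpl replicates 2 and 6 (adjusted p between 0.0528 and 0.114), and bgna, a biglycan of the extracellular matrix (-1.87 ± 0.60, adjusted p = 0.043), did not pass without any 1 of 24 hpl replicates 1, 4 and 6 and 72 hpl replicates 2, 3, 4 and 5 (adjusted p between 0.0631 and 0.133). The retinol carrier gene rbp4 ran from 19.3 to 85.9, median 44.7, at 24 hpl and from 4.68 to 18.9, median 12.1, at 72 hpl, without overlap (log2 fold change -1.87 ± 0.50, adjusted p = 0.0134), and did not pass without 24 hpl replicate 1 (adjusted p = 0.0502).

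Transcripts of the cytosolic ribosome rose almost as a block. Of 79 ribosomal protein genes, 75 were higher and 0 lower, against 5.84% higher among all tested genes, and the median log2 fold change was 0.69 against 0.036 over all genes. Together they made up from 3.71% to 4.54%, median 3.97%, of the signal at 24 hpl and from 5.72% to 7.57%, median 6.46%, at 72 hpl, with no overlap. At 0 h the share ran from 4.296% to 5.86%, median 4.67%. In the large-subunit gene rpl15 the values went from 606 to 959, median 782, at 24 hpl and from 1242 to 1643, median 1454, at 72 hpl (log2 fold change 0.96 ± 0.14, adjusted p = 2.11e-05). The small-subunit gene rps7 lay between 351 and 603 at 24 hpl and between 677 and 1030.1 at 72 hpl, with medians of 438 and 825 (log2 fold change 0.91 ± 0.14, adjusted p = 2.98e-05). In 61 of the 79 genes every 72 hpl library lay above every 24 hpl library, which held for 2.02% of all tested genes. The other 4 did not pass, and 1 of the 79 had a fold change below 0. The list's median was 0.77 in set 1 and 0.61 in set 2, and 68 genes were called higher after median-of-ratios scaling. In set 2 alone, where 3 libraries stood against 3, 2 genes passed.

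Genes of the proteasome, the protease that degrades ubiquitin-tagged proteins, moved the same way. Of 42 genes of its core and its regulatory particle, 26 were higher (61.9%, against 5.84% of all tested genes) and 0 lower. All 42 had a fold change above 0, with a median of 0.67 (0.75 in set 1 and 0.56 in set 2). The core subunit gene psmb1 ran from 99.3 to 171, median 139, at 24 hpl and from 242 to 391, median 329, at 72 hpl, without overlap (log2 fold change 1.23 ± 0.17, adjusted p = 3.19e-06). For psma4, another core subunit, the values were from 89.2 to 255, median 182, at 24 hpl and from 201 to 472, median 384, at 72 hpl (log2 fold change 1.09 ± 0.19, adjusted p = 0.000145), and they overlapped through 72 hpl replicate 4, at 201. Together the 42 genes held from 0.216% to 0.368%, median 0.313%, of the signal at 24 hpl and from 0.362% to 0.558%, median 0.513%, at 72 hpl. The count was between 20 and 31 with 1 library left out, 20 after median-of-ratios scaling and 19 without 24 hpl replicate 1 and 72 hpl replicates 1 and 4 together.

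Of 33 tested genes of interferon response and antigen presentation 2 were higher and 0 lower, a share of 6.06% near the 5.84% of all tested genes. Both encode proteasome proteins. The activator subunit gene psme1 ran from 12.7 to 22.5, median 19.99, at 24 hpl and from 41.4 to 111, median 78.5, at 72 hpl, without overlap (log2 fold change 1.92 ± 0.35, adjusted p = 0.000189), and psmb12, an inducible catalytic subunit in zebrafish, lay between 3.89 and 11.3 at 24 hpl and between 7.21 and 32.9 at 72 hpl, with medians of 5.59 and 18.6 (log2 fold change 1.44 ± 0.39, adjusted p = 0.014), but did not pass when only the 12 libraries were fitted (adjusted p = 0.07). Over the 33 genes the median was 0.10, and the count was between 2 and 5 with 1 library left out (5 without 72 hpl replicate 4).

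Many chaperone genes rose too. Of 49 heat shock and chaperone genes 20 were higher (40.8%, against 5.84% of all tested genes) and 1 lower (2.04% against 1.89%). The median was 0.52 (0.51 in set 1 and 0.69 in set 2). Of the 8 subunit genes of the TRiC chaperonin, the ring that folds actin and tubulin, 7 were higher, a subset picked out after its values were seen, led by cct7 (log2 fold change 1.09 ± 0.17, adjusted p = 2.69e-05) and cct4 (log2 fold change 1.09 ± 0.18, adjusted p = 4.72e-05). The co-chaperone gene bag3 ran from 10.8 to 44.9, median 17.2, at 24 hpl and from 26.1 to 191, median 58.3, at 72 hpl (log2 fold change 1.63 ± 0.39, adjusted p = 0.00441), and hsp90aa1.1, an HSP90 gene, from 9.86 to 101, median 61.9, at 24 hpl and from 56.7 to 233, median 125, at 72 hpl (log2 fold change 1.31 ± 0.31, adjusted p = 0.00378). Both overlapped between groups, and neither passed without 24 hpl replicate 1 and 72 hpl replicates 1 and 4 together (adjusted p = 0.122 for bag3 and 0.168 for hsp90aa1.1). The inducible hsp70l, with a highest value of 1831 in 72 hpl replicate 4, had a log2 fold change of 1.68 ± 0.57 and did not pass (adjusted p = 0.0575), although it passed without any 1 of 24 hpl replicates 2 and 5 and 72 hpl replicate 5 (adjusted p = 0.0394, 0.0222 and 0.0306). The 1 gene lower was hsf2, a heat shock factor (log2 fold change -0.66 ± 0.19, adjusted p = 0.0222), which did not pass without 72 hpl replicate 2 (adjusted p = 0.0557). The number of genes higher was between 14 and 22 with 1 library left out, and 9 without 24 hpl replicate 1 and 72 hpl replicates 1 and 4 together.

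In the endoplasmic reticulum, where secreted and membrane proteins fold, 12 of 43 genes were higher and 1 lower (median 0.41). The shares were 27.9% and 2.33%, against 5.84% and 1.89% of all tested genes. Calreticulins, calcium-binding chaperones, led: calr3b ran from 34.5 to 232, median 97.2, at 24 hpl and from 220.3 to 418, median 335, at 72 hpl (log2 fold change 1.75 ± 0.22, adjusted p = 2.00e-06) and calr3a from 128 to 526, median 256, at 24 hpl and from 419 to 703, median 604, at 72 hpl (log2 fold change 1.24 ± 0.21, adjusted p = 5.68e-05). Only 24 hpl replicate 5, the highest of its group for both genes, reached into the 72 hpl range. The HSP90 of this compartment, hsp90b1, lay between 93.0 and 275 at 24 hpl and between 282 and 605 at 72 hpl, with medians of 146 and 383, without overlap (log2 fold change 1.28 ± 0.25, adjusted p = 0.000502), and the disulfide isomerase gene pdia3 was also higher (log2 fold change 0.98 ± 0.16, adjusted p = 6.86e-05). The member called lower was chac1, a glutathione-degrading enzyme induced in this stress response (log2 fold change -0.78 ± 0.24, adjusted p = 0.0327), and it did not pass without any 1 of 24 hpl replicates 1, 4 and 6 and 72 hpl replicates 2, 3, 5 and 6 (adjusted p between 0.0515 and 0.183). The number of genes higher was between 7 and 13 with 1 library left out (7 without 24 hpl replicate 1). The list's share of signal was 0.850% in 24 hpl replicate 1 and 1.17% in 72 hpl replicate 4, each above the rest of its group.

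**Figure D3:**
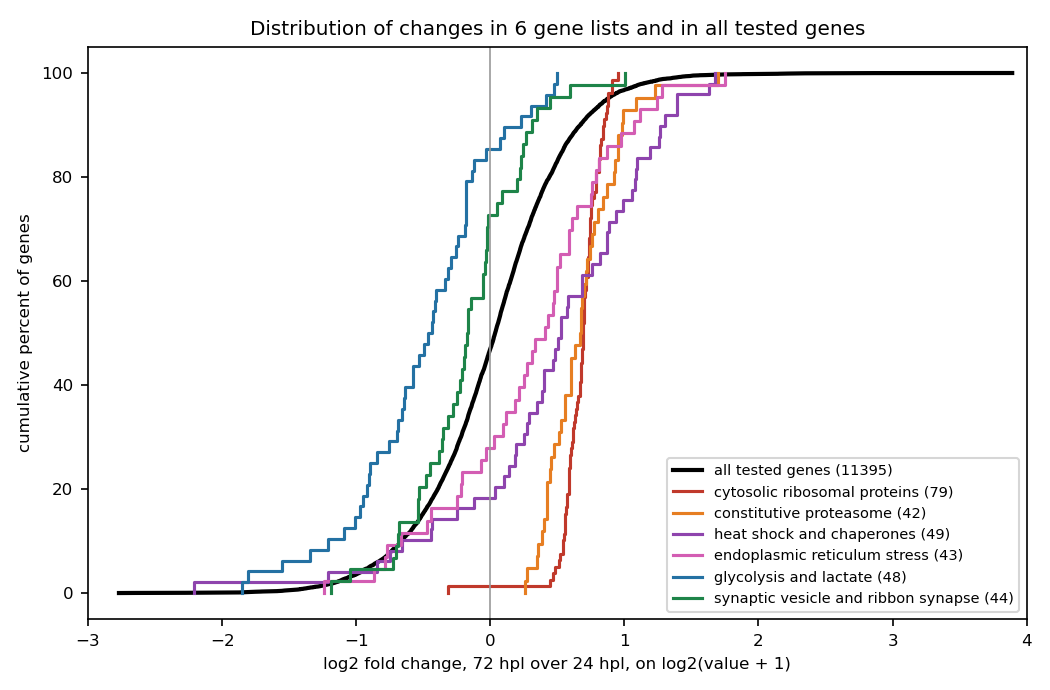
Cumulative share of genes, vertical axis, at or below a given log2 fold change from 24 to 72 hpl, horizontal axis, for 6 gene lists and for all 11395 tested genes. The curve of the ribosomal protein genes lies to the right, with a median of 0.69, and that of all tested genes is centred near 0, with a median of 0.036.

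Genes listed here as regulators of Müller glia reprogramming were higher where they passed. Of 36 genes, 8 were higher (22.2%, against 5.84% of all tested genes) and 0 lower, with a median of 0.36. The count was between 5 and 10 with 1 library left out (5 without any 1 of 24 hpl replicate 1 and 72 hpl replicate 6). Beside sox11b its paralogue sox11a ran from 49.96 to 418, median 228, at 24 hpl and from 216 to 935, median 415, at 72 hpl (log2 fold change 1.13 ± 0.27, adjusted p = 0.00481) and another SoxC gene, sox4a, was also higher (log2 fold change 0.91 ± 0.23, adjusted p = 0.00911), though not without 24 hpl replicate 1 (adjusted p = 0.0665). Fitted on the 12 libraries only, sox11a (adjusted p = 0.152) and sox4a (adjusted p = 0.0989) did not pass. The call of sox4a was also lost without 24 hpl replicate 1 and 72 hpl replicates 1 and 4 together (adjusted p = 0.195). At 0 h sox11a was 389.5 ± 19.0 (SD, n = 6), above its 24 hpl median. The repressor gene tgif1 lay between 30.2 and 46.7 at 24 hpl and between 41.99 and 209.9 at 72 hpl, with medians of 37.2 and 75.9 (log2 fold change 1.04 ± 0.24, adjusted p = 0.00393), and did not pass in the 12 libraries only (adjusted p = 0.0947) or without 24 hpl replicate 1 and 72 hpl replicates 1 and 4 together (adjusted p = 0.122). The proneural gene ascl1a ran from 0 to 1.86, median 0.633, at 24 hpl and from 0 to 51.3, median 5.81, at 72 hpl (log2 fold change 2.13 ± 0.58, adjusted p = 0.0155, 0.86 in set 1 and 3.39 in set 2), and did not pass without 72 hpl replicate 6 (adjusted p = 0.0876). Its call was also lost in the 12 libraries only (adjusted p = 0.156) and in set 1 alone. The chromatin gene hmga1a was higher (log2 fold change 0.67 ± 0.13, adjusted p = 0.000553), and passed with any 1 library left out.

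Müller glia genes themselves went both ways: 3 of 24 were higher (12.5%, against 5.84% of all tested genes) and 1 lower (4.17% against 1.89%), with a median of -0.10. The glutamine synthetase gene glula, which recycles glutamate in these cells, fell, with values from 1822 to 6064, median 4246, at 24 hpl and from 1387 to 2859, median 1965, at 72 hpl (log2 fold change -0.91 ± 0.22, adjusted p = 0.0044), and at 0 h it was 2182 ± 457 (SD, n = 6). In the 12 libraries only it did not pass (adjusted p = 0.107). In bulk RNA, fewer cells of a type and less RNA per cell cannot be told apart, for these genes or those of any other cell type. The radial glia gene fabp7a rose, with values from 91.9 to 146, median 132, at 24 hpl and from 149 to 615, median 242, at 72 hpl, without overlap (log2 fold change 1.07 ± 0.27, adjusted p = 0.00641), although its 0 h level was higher than both, 1128 ± 177 (SD, n = 6). With fabp11b it was among the 2 of 7 tested fatty acid-binding protein genes that passed (28.6% higher, against 5.84% of all tested genes). The intermediate filament gene gfap, a marker of gliosis, ran from 9.77 to 34.7, median 25.3, at 24 hpl and from 12.9 to 41.9, median 28.3, at 72 hpl (log2 fold change 0.25 ± 0.31, adjusted p = 0.715) and did not pass. The 30 Müller glia genes with values, tested or not, held 0.355% of the signal in 72 hpl replicate 4 and 0.705 to 0.868% in the other 72 hpl libraries.

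Few cell cycle genes passed the test. In 41 DNA replication genes 1 was higher (2.44%) and 0 lower (median 0.05), and in 43 mitosis genes 1 was higher (2.33%) and 0 lower (median 0.01). Over all tested genes 5.84% were higher. Those 2 were the clamp loader gene rfc2 (log2 fold change 0.75 ± 0.24, adjusted p = 0.0463), not called without any 1 of 24 hpl replicates 1, 4 and 6 and 72 hpl replicates 1, 2, 3, 5 and 6 (adjusted p between 0.053 and 0.135), and the tubulin gene tuba8l4 (log2 fold change 0.52 ± 0.16, adjusted p = 0.0331), not called without any 1 of 24 hpl replicates 1, 4 and 6 and 72 hpl replicates 2, 3 and 6 (adjusted p between 0.0701 and 0.171). The replication clamp gene pcna lay between 78.3 and 185 at 24 hpl and between 121 and 246 at 72 hpl, with medians of 147 and 180.4 (log2 fold change 0.43 ± 0.18, adjusted p = 0.147) and did not pass. It passed narrowly without 72 hpl replicate 4 (0.55, adjusted p = 0.0498) and with array weights (adjusted p = 0.0406). In the Notch pathway 2 of 24 genes were higher (8.33%, near the 5.84% of all tested genes), hes6 (log2 fold change 0.81 ± 0.25, adjusted p = 0.0321) and notch2 (log2 fold change 0.66 ± 0.21, adjusted p = 0.0484). The call of notch2 was lost without any 1 of 24 hpl replicates 1, 2, 4 and 6 and 72 hpl replicates 2, 3 and 4 (adjusted p between 0.0574 and 0.158).

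The change of hes6, a gene of neurogenic cells that acts with proneural factors, differed between library sets, the only gene of 11395 for which it did (0.00878%), with 509 at an unadjusted p under 0.05. In set 1 its values were 22.9, 17.9 and 17.1 at 24 hpl and 13.6, 15.16 and 19.5 at 72 hpl. In set 2 they were 4.98, 14.2 and 14.0 at 24 hpl and 29.1, 40.6 and 52.2 at 72 hpl. The difference between set 2 and set 1 was 2.13 ± 0.39 on the log2 scale (limma, adjusted p = 0.0243), and without 24 hpl replicate 4 it was 1.68 (adjusted p = 0.299). With 1 library left out the adjusted p of the difference ran from 0.00706 to 0.299, and it also missed the threshold without any 1 of 24 hpl replicates 1 and 2 and 72 hpl replicates 1, 2 and 6. The call over both sets was lost without any 1 of 24 hpl replicates 4 and 6 and 72 hpl replicates 5 and 6 (adjusted p between 0.0672 and 0.184).

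Of 43 microglia and macrophage genes 4 were higher (9.30%, near the 5.84% of all tested genes) and 0 lower, with a median of 0.42. Beside lgals9l1 these were mpeg1.1, a perforin of macrophages, c1qc, a chain of complement C1q, and the chemokine gene ccl34b.1. The values of mpeg1.1 ran from 0.790 to 27.7, median 12.4, at 24 hpl and from 8.49 to 64.4, median 38.4, at 72 hpl (log2 fold change 1.55 ± 0.42, adjusted p = 0.0146), overlapped, and did not pass without any 1 of 24 hpl replicate 1 and 72 hpl replicate 2 (adjusted p between 0.0505 and 0.101). Those of c1qc (log2 fold change 1.66 ± 0.53, adjusted p = 0.044) did not pass without any 1 of 24 hpl replicates 1, 3, 4, 5 and 6 and 72 hpl replicates 2, 3 and 5 (adjusted p between 0.0591 and 0.119), and ccl34b.1 (log2 fold change 1.17 ± 0.35, adjusted p = 0.0264) did not pass without any 1 of 24 hpl replicates 1 and 6 and 72 hpl replicates 1, 2, 3 and 6 (adjusted p between 0.0519 and 0.117). In the 12 libraries only mpeg1.1, c1qc and ccl34b.1 did not pass (adjusted p = 0.198, 0.112 and 0.257). The 54 genes of this list with values, tested or not, held from 0.139% to 0.249%, median 0.175%, of the signal at 24 hpl and from 0.158% to 0.359%, median 0.255%, at 72 hpl. The count was between 1 and 7 with 1 library left out (1 without 72 hpl replicate 2, 2 without any 1 of 24 hpl replicate 1 and 72 hpl replicate 3, 7 without 72 hpl replicate 4). No gene of the neutrophil or prostaglandin lists passed (limma, 0 of 5 and 3 of 17 at an unadjusted p under 0.05). These unadjusted counts have no share of all tested genes beside them and show no excess.

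Rod phototransduction transcripts had lower values at 72 hpl in 4 libraries, and few passed the test. In 15 rod phototransduction genes 1 was lower (6.67%, against 1.89% of all tested genes) and 0 higher. The median was -0.53 (-0.04 in set 1 and -0.94 in set 2), and none had a fold change above 0. Outside this list the rod marker nr2e3 went the other way, with medians of 30.8 at 24 hpl and 67.5 at 72 hpl. It did not pass (log2 fold change 0.53 ± 0.38, adjusted p = 0.464). Rhodopsin, rho, ran from 20134 to 40181, median 25436, at 24 hpl and from 10422 to 43328, median 14123, at 72 hpl (log2 fold change -0.53 ± 0.28, adjusted p = 0.283). At 72 hpl replicates 1 and 2 held 43328 and 39251, and the other 4 held 10422 to 14572, below every 24 hpl library. Without those 2 libraries 9 of the 15 genes were called lower and the median was -1.06. They were set apart for their rod values, known from earlier results of these data, so these values, and those of gnat1 and pde6a next, describe the other libraries and are no test of rod genes. The transducin gene gnat1 (log2 fold change -0.64 ± 0.27, adjusted p = 0.153) and the phosphodiesterase gene pde6a (log2 fold change -0.94 ± 0.34, adjusted p = 0.0866) passed when either of these libraries was left out (gnat1 adjusted p = 0.0396 without replicate 1 and 0.0433 without replicate 2, pde6a 0.0338 and 0.0177). The 1 gene called was saga, an arrestin that ends the rod response (log2 fold change -0.84 ± 0.27, adjusted p = 0.0459), and it did not pass without any 1 of 24 hpl replicates 2, 3, 4, 5 and 6 and 72 hpl replicates 3, 4, 5 and 6 (adjusted p between 0.0583 and 0.138). At 0 h rho was 58388 ± 4705 (SD, n = 6).

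Of 20 cone phototransduction genes 0 were higher and 1 lower (5%, against 1.89% of all tested genes), with a median of -0.23. The opsins of the cones were counted apart. Of 8 cone opsin genes 3 were higher (37.5%, against 5.84% of all tested genes) and 0 lower, with a median of 1.09 (1.90 in set 1 and 0.38 in set 2). The green opsin gene opn1mw2 ran from 38.5 to 213, median 67.1, at 24 hpl and from 64.1 to 1118, median 381, at 72 hpl (log2 fold change 2.15 ± 0.46, adjusted p = 0.00131), and the red opsin gene opn1lw2 from 4.86 to 301, median 53.7, at 24 hpl and from 80.0 to 1139, median 373, at 72 hpl (log2 fold change 2.64 ± 0.67, adjusted p = 0.0084, 4.46 in set 1 and 0.83 in set 2). The call of opn1lw2 was lost in the 12 libraries only (adjusted p = 0.0883) and without 72 hpl replicates 1 and 2 together (adjusted p = 0.0565). Both overlapped between groups, opn1mw2 through 72 hpl replicate 4 alone, at 64.1. The third was opn1lw1 (log2 fold change 1.14 ± 0.37, adjusted p = 0.0484), which did not pass without any 1 of 24 hpl replicates 1, 2, 3 and 5 and 72 hpl replicates 1, 2 and 6 (adjusted p between 0.0523 and 0.192). Levels at 0 h were 6881 ± 1049 (SD, n = 6) for opn1mw2 and 1781 ± 1449.5 (SD, n = 6) for opn1lw2, so at 72 hpl opn1mw2 was still far under its dark level. The number of opsins higher was between 2 and 5 with 1 library left out (5 without 72 hpl replicate 4). Reads of tandem copies (opn1mw1 to opn1mw4, opn1lw1 and opn1lw2) may be shared, and the treatment of multiply mapped reads is not given in the sources used here. The cone gene called lower was slc24a2, an ion exchanger (log2 fold change -0.94 ± 0.28, adjusted p = 0.03), which did not pass without any 1 of 24 hpl replicates 4 and 6 and 72 hpl replicates 2, 3 and 4 (adjusted p between 0.0639 and 0.117).

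Of the 24 genes the study discusses, all tested, 3 were called, all higher: sox11b, opn1mw2 and mpeg1.1. The other 21 had log2 fold changes from -0.94 to 2.35. The highest was that of the green opsin gene opn1mw1 (adjusted p = 0.116). It passed with array weights and without either 72 hpl replicate 4 (3.31, adjusted p = 0.0101) or 24 hpl replicate 3 (3.03, adjusted p = 0.0332). Its paralogue opn1mw4 (1.04, adjusted p = 0.109) passed with array weights, in set 1 alone and without 72 hpl replicate 4 (1.41, adjusted p = 0.0172). For opn1mw3 (0.42, adjusted p = 0.644) no alternative gave a call. The DNA repair gene ddb2, with values from 219 to 289, median 244, at 24 hpl and from 119.3 to 233, median 157, at 72 hpl, did not pass (log2 fold change -0.65 ± 0.22, adjusted p = 0.0578), but passed without 72 hpl replicate 6 (-0.81, adjusted p = 0.0166) and with median-of-ratios scaling. The study chose these genes with these samples in view, so they are no independent evidence.

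Glycolysis genes fell where they passed. Of 48 genes 8 were lower (16.7%, against 1.89% of all tested genes) and 0 higher, with a median of -0.45 (-0.72 in set 1 and -0.27 in set 2). No gene passed when only the 12 libraries were fitted. The regulator gene pfkfb4b, which sets the level of a glycolysis activator, ran from 182 to 1229, median 541, at 24 hpl and from 115 to 247, median 158, at 72 hpl (log2 fold change -1.55 ± 0.39, adjusted p = 0.00646), and aldocb, an aldolase, from 4766 to 12852, median 7456, at 24 hpl and from 3199 to 9116, median 4336, at 72 hpl (log2 fold change -0.75 ± 0.19, adjusted p = 0.00839), the latter not called without 24 hpl replicate 1 (adjusted p = 0.0523). Without 24 hpl replicate 1 and 72 hpl replicates 1 and 4 together pfkfb4b did not pass (adjusted p = 0.0887). The number lower was between 1 and 18 with 1 library left out (1 without 24 hpl replicate 1, 3 without 24 hpl replicate 4, 5 without any 1 of 24 hpl replicate 6 and 72 hpl replicates 2, 3, 5 and 6, 13 without 24 hpl replicate 2, 14 without 24 hpl replicate 5, 18 without 72 hpl replicate 4). As with the linker histones, the highest shares of signal at 24 hpl were in replicates 1, 4 and 6.

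Respiratory chain genes had a smaller share higher and a larger share lower than all tested genes. Of 84 such genes 3 were higher (3.57%, against 5.84% of all tested genes) and 5 lower (5.95% against 1.89%). The fold change was below 0 in 68 of the 84, with a median of -0.15 (0.01 in set 1 and -0.32 in set 2). Among them ndufv1, a subunit of complex I, was lower (log2 fold change -0.62 ± 0.13, adjusted p = 0.000901). The number lower was between 3 and 7 with 1 library left out (3 without 72 hpl replicate 4), and the number higher was between 0 and 2, below 3 with any 1 library left out. Among 39 genes of fatty acid oxidation 2 were higher (5.13%) and 1 lower (2.56%), near the shares of all tested genes. The beta-oxidation gene hadh ran from 9.01 to 26.2, median 22.6, at 24 hpl and from 20.3 to 60.8, median 58.4, at 72 hpl (log2 fold change 1.42 ± 0.29, adjusted p = 0.000816), and its value of 20.3 in 72 hpl replicate 4 was the only 1 at 72 hpl to fall in the range of 24 hpl. The lipid regulator gene pparaa was lower (log2 fold change -0.91 ± 0.21, adjusted p = 0.00258) and the lipid droplet gene plin2 higher (log2 fold change 1.25 ± 0.36, adjusted p = 0.0218), the latter not called without any 1 of 24 hpl replicates 1, 4 and 6 and 72 hpl replicates 4 and 5 (adjusted p between 0.0542 and 0.094). Of 45 oxidative defence genes 4 were higher (8.89%) and 1 lower (2.22%), near the 5.84% and 1.89% of all tested genes. Among those higher was gpx4b, which reduces lipid peroxides, with values from 541 to 858, median 747, at 24 hpl and from 928 to 2099, median 1428, at 72 hpl, without overlap (log2 fold change 0.96 ± 0.20, adjusted p = 0.000891). The number higher in that list was between 3 and 8 with 1 library left out (8 without 72 hpl replicate 4).

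Among clock repressors 5 of 23 genes were lower (21.7%, against 1.89% of all tested genes) and 1 higher (4.35% against 5.84%), with a median of -0.62. The light-induced period gene per2 ran from 462 to 1033, median 738, at 24 hpl and from 263 to 471, median 409, at 72 hpl (log2 fold change -0.999 ± 0.16, adjusted p = 5.25e-05), while its 0 h level was 69.4 ± 11.4 (SD, n = 6), far under both. The number lower was between 1 and 10 with 1 library left out (1 without 24 hpl replicate 1, 2 without any 1 of 24 hpl replicates 4 and 6, 3 without any 1 of 72 hpl replicates 2 and 5, 8 without 24 hpl replicate 5, 10 without 72 hpl replicate 4). Of 29 activators and output genes 3 were higher (10.3%) and 3 lower (10.3%). The melatonin synthesis gene aanat1 rose, with values from 75.5 to 663, median 227, at 24 hpl and from 440.1 to 743, median 616, at 72 hpl (log2 fold change 1.37 ± 0.26, adjusted p = 0.000315), with 24 hpl replicate 5 within the 72 hpl range. The factors nfil3-6, from 1356 to 3604, median 2114, at 24 hpl and from 436 to 1464, median 929, at 72 hpl (log2 fold change -1.25 ± 0.25, adjusted p = 0.000666), and tefa, from 1097 to 1796, median 1373, at 24 hpl and from 768 to 1063, median 937, at 72 hpl (log2 fold change -0.60 ± 0.12, adjusted p = 0.000891), fell, and tefa did so without overlap. At 0 h tefa was 173 ± 47.7 (SD, n = 6).

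Activity and stress genes gave small counts in both directions, beside 5.84% higher and 1.89% lower over all tested genes. Of 41 early genes 4 were higher (9.76%) and 1 lower (2.44%), with a median of 0.016. The number higher was between 2 and 4 with 1 library left out (2 without any 1 of 24 hpl replicates 2, 3, 4 and 6 and 72 hpl replicates 3 and 6). The AP-1 gene jun rose, with values from 78.3 to 153, median 117, at 24 hpl and from 143 to 804, median 365, at 72 hpl (log2 fold change 1.53 ± 0.32, adjusted p = 0.001), and gem, a small GTPase of excitable cells, fell without overlap, from 95.4 to 238, median 132, at 24 hpl and from 37.6 to 69.9, median 59.1, at 72 hpl (log2 fold change -1.39 ± 0.20, adjusted p = 9.15e-06). Among 40 light-induced DNA repair and p53 target genes 2 were higher (5%) and 2 lower (5%), with a median of -0.26. The number lower was between 1 and 4 with 1 library left out (1 without 24 hpl replicate 1, 4 without any 1 of 24 hpl replicate 5 and 72 hpl replicate 4). The stress sensor gene sesn3 ran from 44.0 to 114, median 52.55, at 24 hpl and from 122 to 161, median 145, at 72 hpl, without overlap (log2 fold change 1.21 ± 0.21, adjusted p = 0.000169), and rad23b, of nucleotide excision repair, was also higher (log2 fold change 0.60 ± 0.13, adjusted p = 0.0012). Another sestrin gene, sesn1, was lower (log2 fold change -0.94 ± 0.25, adjusted p = 0.0112), though not without 24 hpl replicate 1 (adjusted p = 0.0532). The thyroid hormone receptor gene thraa fell without overlap, from a median of 515 to 176 (log2 fold change -1.39 ± 0.28, adjusted p = 0.000807).

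Most genes of synapses and inner retinal neurons that passed were lower. Of 44 synaptic vesicle and ribbon genes 6 were lower (13.6%, against 1.89% of all tested genes) and 1 higher (2.27% against 5.84%), with a median of -0.17. The number lower was between 3 and 7 with 1 library left out (3 without any 1 of 24 hpl replicates 2 and 4 and 72 hpl replicates 3 and 6). The complexin gene cplx2l ran from 540.1 to 796, median 685, at 24 hpl and from 339 to 587, median 399, at 72 hpl (log2 fold change -0.73 ± 0.12, adjusted p = 5.46e-05) and the synaptotagmin gene syt5a from 6182 to 7633, median 6861, at 24 hpl and from 3342 to 5286, median 4221, at 72 hpl (log2 fold change -0.68 ± 0.14, adjusted p = 0.000666), the latter without overlap. Of 24 amacrine cell genes, read in whole retina, 4 were lower (16.7%, against 1.89% of all tested genes) and 0 higher. The list as a whole was near 0: 11 genes had a fold change above 0 and 13 below. The list median was -0.08 (0.026 in set 1 and 0.033 in set 2). The number lower was between 2 and 5 with 1 library left out (2 without any 1 of 24 hpl replicates 2 and 6 and 72 hpl replicates 3 and 5). The 4 lower genes include pvalb6, a parvalbumin, from 86.5 to 136, median 114, at 24 hpl and from 51.8 to 83.5, median 64.3, at 72 hpl (log2 fold change -0.77 ± 0.14, adjusted p = 0.000272), and slc6a1a, a GABA transporter, from 226 to 316, median 247, at 24 hpl and from 109 to 174, median 163, at 72 hpl (log2 fold change -0.73 ± 0.19, adjusted p = 0.0107). Neither overlapped between groups, and slc6a1a did not pass without 24 hpl replicate 1 and 72 hpl replicates 1 and 4 together (adjusted p = 0.0545). Of 42 neurotransmitter receptor genes 3 were lower (7.14%, against 1.89% of all tested genes) and 0 higher. They were led by chrnb3a, a nicotinic receptor subunit (log2 fold change -1.34 ± 0.33, adjusted p = 0.00539), which did not pass in the 12 libraries only (adjusted p = 0.115). In the potassium channel list 2 of 13 genes were lower (15.4%, against 1.89% of all tested genes) and 0 higher. These were kcnip3b (log2 fold change -0.76 ± 0.16, adjusted p = 0.000956) and kcnip1b (log2 fold change -0.65 ± 0.17, adjusted p = 0.0132). Both encode proteins that interact with potassium channels, and no gene of a channel itself passed in this list. The call of kcnip1b was lost in the 12 libraries only (adjusted p = 0.0693) and without 24 hpl replicate 1 and 72 hpl replicates 1 and 4 together (adjusted p = 0.131). Of 25 ganglion cell genes 1 was higher (4%) and 1 lower (4%), and of 13 horizontal cell genes 1 was lower (7.69%). Over all tested genes 5.84% were higher and 1.89% lower. Of 18 bipolar cell genes 0 passed (limma, 2 of 18 at an unadjusted p under 0.05, with no share of all tested genes to set beside it).

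**Figure D4:**
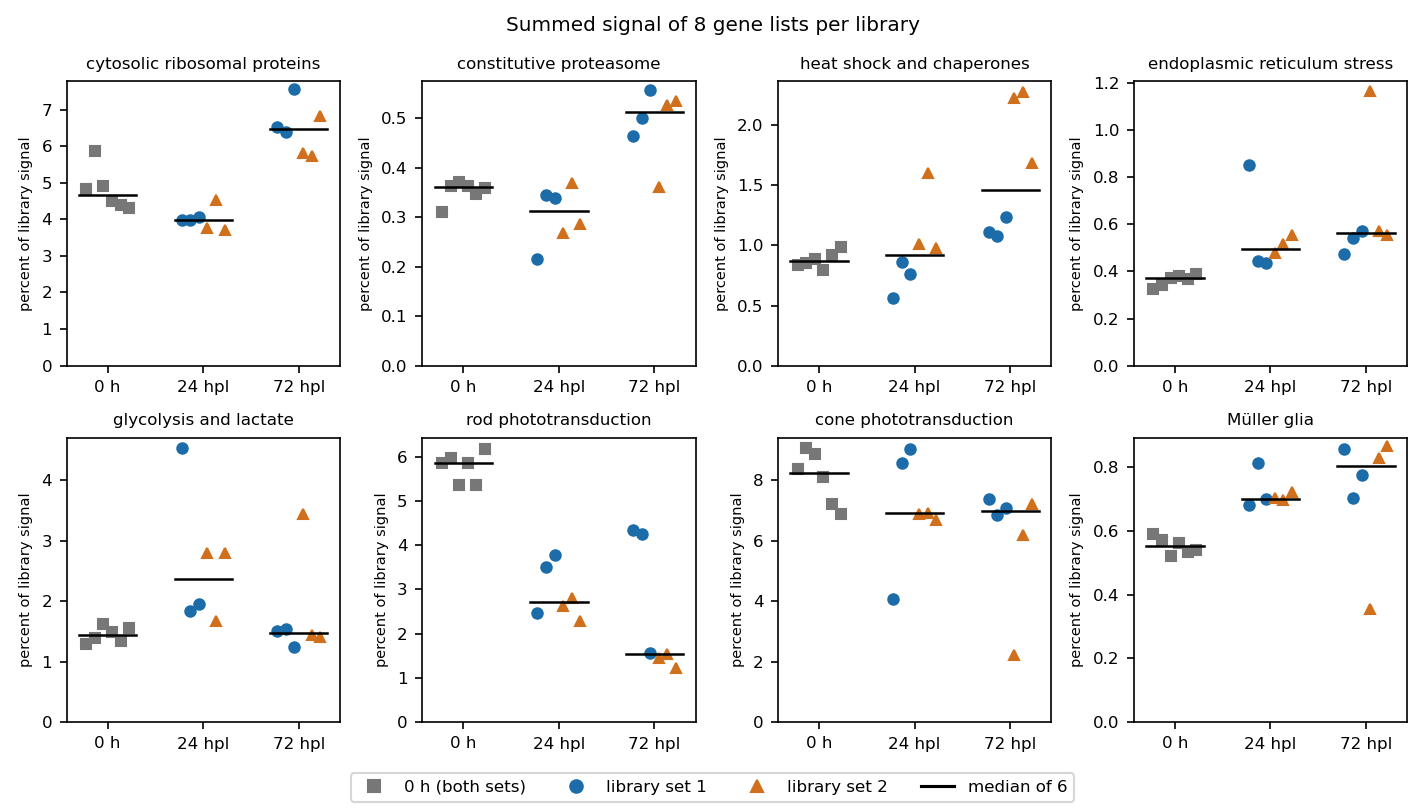
Percent of each library's summed normalised values taken by 8 gene lists (vertical axes) at 0 h, 24 hpl and 72 hpl, 6 libraries each, with circles for set 1 and triangles for set 2. The ribosomal protein share at 24 hpl, from 3.71% to 4.54%, median 3.97%, lies below that at 72 hpl, from 5.72% to 7.57%, median 6.46%, in every library.

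In lists of neighbouring tissues few genes were called. In the pigment epithelium and melanosome list 2 of 16 genes were higher (12.5%, against 5.84% of all tested genes) and 1 lower (6.25% against 1.89%), with a median of 0.56. The 3 pigment epithelium markers held 0.129 to 0.347% of the signal at 24 hpl and 0.180 to 0.504% at 72 hpl. Beside pmelb, pmela was higher (log2 fold change 0.85 ± 0.24, adjusted p = 0.0191), though not without any 1 of 24 hpl replicate 1 and 72 hpl replicates 3, 5 and 6 (adjusted p between 0.0546 and 0.102). The number higher in this list was between 1 and 6 with 1 library left out (1 without any 1 of 24 hpl replicate 1 and 72 hpl replicates 3, 5 and 6, 6 without any 1 of 24 hpl replicate 5 and 72 hpl replicate 4). Of 23 epithelial genes 2 were higher (8.70%, near the 5.84% of all tested genes), and the count was between 1 and 3 with 1 library left out. These were the keratin genes krt4 and krt17 (log2 fold change 2.16 ± 0.60, adjusted p = 0.0155), the latter not called without 72 hpl replicate 6 (adjusted p = 0.0545). The 4 epithelial markers held 0.000864 to 0.00431% at 24 hpl and 0.00202 to 0.0134% at 72 hpl, and cyt1 was at 0 in all 12 libraries. The part of these tissues in the rises was not tested. Muscle, lens, and blood and vessel genes gave no calls (limma), with 3 of 26, 2 of 15 and 4 of 23 at an unadjusted p under 0.05. No share of all tested genes at that threshold is given here, so these counts show no excess.

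The remaining lists gave small counts. Of 26 visual cycle genes 3 were higher (11.5%, against 5.84% of all tested genes) and 1 lower (3.85% against 1.89%), the latter rbp4. Of 24 photoreceptor transcription factors prdm1a, a determinant of photoreceptor fate in mouse, was higher (log2 fold change 1.204 ± 0.32, adjusted p = 0.011), though not in the 12 libraries only (adjusted p = 0.0605) or without 24 hpl replicate 1 and 72 hpl replicates 1 and 4 together (adjusted p = 0.0902), and crx, the cone-rod homeobox factor, lower (log2 fold change -0.38 ± 0.12, adjusted p = 0.044), though not without any 1 of 24 hpl replicates 1, 2, 4 and 6 and 72 hpl replicates 1, 3, 4 and 5 (adjusted p between 0.0502 and 0.172). Of the 24 photoreceptor transcription factors 4.17% were higher and 4.17% lower. Of 17 complement genes 2 were higher (11.8%) and of 34 cytokine and chemokine genes 1 was higher (2.94%) and 1 lower (2.94%). The matrix list gave 2 lower of 51 (3.92%), the myelin list 1 lower of 12 (8.33%) and the cilium transport list 1 higher of 30 (3.33%). Over all tested genes 5.84% were higher and 1.89% lower. No gene passed among the lists of cholesterol synthesis, heme and iron, outer segment structure, non-visual opsins, guanylate cyclases and matrix metalloproteinases (limma), where 5 of 32, 6 of 22, 1 of 13, 1 of 16, 2 of 9 and 0 of 10 had an unadjusted p under 0.05. These unadjusted counts stand without the share of all tested genes at that threshold, so they show neither excess nor lack. The counts of called genes in this paragraph, all of 3 or fewer, moved between 0 and 5 with 1 library left out.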

How the data were processed

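Reads were aligned by the authors to zebrafish build dR10 (as written in the methods) with STAR, summarised to genes by HTSeq and passed to edgeR. Tool versions, the annotation, strandedness and the handling of multiply mapped reads are not given in the sources used here. Input was 150 to 230 ng of total RNA per the labels. What was deposited for each library is a column of edgeR pseudocounts, a linear normalised signal rather than counts. Depth and counting error are therefore unknown, and errors come from the spread between fish, with a median standard error of 0.325 for the log2 fold changes (quartiles 0.213 and 0.498). A deposited table of means, and deposited comparisons by the authors (fold changes, mean expression, a likelihood ratio, p and FDR for other time-points and another lesion), were not used.

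The table lists 15245 genes, and the 11395 that reached 5 in 6 or more of the 48 libraries were tested. Genes with symbols turned into dates (12, with 0.128% of the signal) were left out. The 72 hpl and 24 hpl groups were compared with limma 3.58.1 in R 4.3.3 on log2(value + 1). The model held terms for 8 time-points and 2 library sets over all 48 libraries, with a trended eBayes prior (39 residual degrees of freedom) and Benjamini-Hochberg adjustment over all tested genes. Counts of genes used adjusted p under 0.05, with or without a fold of at least 2, and named genes and list members the adjusted p alone. A second model with an interaction of time-point and set tested whether the change differed between sets. Values after ± are standard errors unless marked SD. Each library is 1 fish, so the p-values measure a spread between fish, pooled over all 8 time-points and not that of the 12 compared fish alone. Fish of the same round shared a light treatment, and with 2 rounds the spread between rounds is not measured. Fitted on the 12 libraries only, 333 genes were called, and the standard error of the hes6 difference between sets was 0.617 in place of 0.386.

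The sample labels gave the groups and the replicate numbers. Columns were placed in library sets by replicate number, and 2 of the 0 h columns by a suffix in the column name. In all other columns that suffix goes with set 2, while the sample labels attach it to set 1. The members, the 51 gene lists and the tests were chosen with earlier results of these data known, and lists are given by counts and medians, with no test of a list. Genes named are the 24 the study discusses, the 10 largest rises and falls past the test with the same sign in both sets, up to 4 members of each list and the 5 smallest interaction p-values, and not all of them are printed. The genes aldocb, cct4, cct7, chac1, hmga1a, hsf2, hsp70l, ndufv1, pdia3 and sox4a were named after their values were seen. No 2 libraries were identical (correlations 0.833 to 0.946).

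The fit was tested on simulated data for 11395 genes of this comparison: of 100 genes changed 2-fold 78 were called, of 100 changed 4-fold 100 were called, and of the unchanged genes 3. The changed genes were drawn only from those of higher mean, and all simulated libraries had the same quality. The real ones did not, with array weights from 0.351 in 72 hpl replicate 4 to 1.54 in 72 hpl replicate 6. The simulation therefore gives no rates for low genes or uneven libraries. Alternatives were other pseudocounts, filters, scalings, terms, weights and eBayes settings, each library set alone, a replicate block and each library left out. Leaving out 72 hpl replicates 1 and 2 together was chosen with their rod values known from earlier results, and leaving out the 3 libraries with the lowest array weights together after seeing the data.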

Additional observations from a re-analysis of the deposited data

Results flagged for a closer look

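In groups of 6, a library is singled out here where its gap to the nearest other library is larger, as a share of the group's range, than Dixon's critical value, which chance alone gives in about 1 of 20 groups. Gap and range were taken on the log2 scale, of value + 1 for genes and of percent for list shares, while the values printed below are linear. Of 142 group values tested, 112 of genes and 30 of list shares, 13 were singled out, 9 of them in 72 hpl replicate 4 and 2 in 24 hpl replicate 1.

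In 72 hpl replicate 4, fabp11b was at 16.5 against 537 to 754 in the other libraries of the time-point, psma4 at 201 against 378 to 472 and hadh at 20.3 against 55.2 to 60.8. The linker histone genes stood above their group there, h1fx at 1740.2 against 61.0 to 165 and h1f0 at 801 against 59.0 to 99.6. The shares of signal in this library were 3.44% for glycolysis and 1.17% for endoplasmic reticulum genes, above the others, and 2.22% for cone phototransduction and 0.355% for Müller glia genes, below them.

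In 24 hpl replicate 1, myoc was at 22.6 against 78.9 to 148 in the other 24 hpl libraries, and endoplasmic reticulum genes held 0.850% of the signal against 0.436 to 0.555%. In 24 hpl replicate 2 Müller glia genes held 0.814% against 0.681 to 0.722%. In 24 hpl replicate 4 hes6 was at 4.98 against 14.0 to 22.9.

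The change of hes6 from 24 to 72 hpl was -0.25 in library set 1 and 1.87 in set 2 on the log2 scale, a difference of 2.13 ± 0.39 (limma interaction, adjusted p = 0.0243). Its cause was not tested.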

How the results depend on the processing

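The count of 881 called genes was 333 (106 at 2-fold or more) when only the 12 libraries were fitted, 439 in library set 1 alone, 74 (58 at 2-fold or more) in library set 2 alone, where fewer libraries enter, and 525 without 24 hpl replicate 1 and 72 hpl replicates 1 and 4 together, an alternative chosen after seeing the data. With 1 library left out it ran from 573 (154 at 2-fold or more), without 24 hpl replicate 1, to 1064 (365), without 24 hpl replicate 5, against 881 (249) in full. The number of genes whose change differed between sets ran from 0 to 3 with 1 library left out and was 0 in the 12 libraries alone. The change of hes6 was reversed in set 1 alone, at -0.25 (adjusted p = 0.664). The cause was not tested. With a replicate block 828 genes were called (615 higher, 213 lower), 240 at 2-fold or more. The deviations of same-numbered libraries correlated between -0.0583 and 0.165, over 0.1 in 2 of 6 pairs, so the numbers were not taken to pair the fish.

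Over 28 alternatives, the named genes gave 4148 values, of which 669 lost the call and 32 gained it. The sign differed from that in full in 46 values of 14 genes, 45 of them of genes not called in either fit and the other that of hes6. Depth of single libraries is unknown, low genes are understated by log2(value + 1), and 2-fold changes can be missed at 6 against 6.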
